A study of Mus musculus with 6 samples.

Results

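The genes that carry the mitochondrial death signal from the outer membrane to the first caspase are described here: *Vdac1*, *Vdac2* and *Vdac3*, which encode the voltage-dependent anion channels, *Cycs*, which encodes somatic cytochrome c, *Apaf1* and *Casp9*, which encode the scaffold and the protease of the apoptosome, *Diablo*, which encodes SMAC, and *Xiap*, which encodes the X-linked inhibitor of apoptosis protein. They were chosen by name, as the rows of the gene count table that carry these symbols, and make up 8 of its 19342 genes. All 8 passed the filter on low counts and were tested. RNA-seq had been done on islets, which were released from the pancreas with collagenase P, of FXR-/- mice, in which *Nr1h4*, the gene for the bile acid receptor FXR, is knocked out on a C57Bl/6 background, and of FXR+/+ (wild type) control mice. Of the 3 libraries of each genotype 1 was from females and 2 were from males, and every label gives an age of 3 months. The labels number the male libraries 1 and 2 in each genotype, and neither they nor the methods state how many animals went into a library, so the p-values measure only the spread between these libraries.

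VDAC proteins are barrel-shaped pores in the outer mitochondrial membrane that let ATP, ADP and other small metabolites pass. Cytochrome c carries electrons from complex III to complex IV between the mitochondrial membranes, and once it is released into the cytosol it binds APAF1, which then assembles into a wheel that recruits and activates caspase-9. XIAP blocks caspase-9 and the executioner caspases, and SMAC, which leaves the mitochondria together with cytochrome c, binds XIAP and lifts that block. In beta cells the VDAC pores also lie on the route of the ATP that couples glucose metabolism to insulin secretion.

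The libraries held 20629306 to 30139235 counts on genes. *Nr1h4* itself had 14.2, 13.6 and 12.2 CPM (counts scaled to library size with edgeR's TMM factors) in the female 1, male 1 and male 2 libraries of FXR+/+ islets and 5.67, 7.63 and 5.81 CPM in those of FXR-/- islets, so all libraries followed their labels in direction. The transcript was lower and not absent, with 138 to 145 counts in each FXR-/- library and a fold of 0.477. Its adjusted p was 0.217 by edgeR with a sex term, 0.0441 by edgeR with a block for the replicate number and 7.89e-05 by DESeq2. Beta cell genes took 19.1% to 25.6% of the counts. Acinar genes, which mark exocrine tissue left on the islets, took 5.04%, 12.7% and 4.51% of the counts in FXR+/+ and 6.47%, 13.1% and 8.14% in FXR-/- libraries, in the same order, and the least abundant of these 12 genes, *Amy2a5*, was counted at least 4801 times in every library. In bulk islets a smaller number of cells of a type and less RNA per cell cannot be told apart.

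The start regions of these genes were read for short motifs of factors that bear on the design, since FXR is the factor removed. The RefSeq promoter windows of GRCm38.p6 matched 6 of the 8 genes with 9 windows, of which the 250 bases before the annotated start were read. The motifs searched, on both strands, were AGGTCA, the single hexamer that FXR and many related nuclear receptors read, its inverted repeat with a spacing of 1 base, which is the classical FXR element, GCATGCGC, the core of the element of NRF-1, a regulator of respiratory chain genes, and TGACGTCA, the cyclic AMP response element. AGGTCA stood in 14.02% of all 32851 windows of the table, GCATGCGC in 2.26%, TGACGTCA in 1.55% and the inverted repeat in 0.0061%. The inverted repeat was in 0 of the 9 windows. AGGTCA was in both windows of *Vdac1*, GCATGCGC in those of *Cycs* and *Apaf1*, and TGACGTCA in that of *Cycs*. No motif overlapped another. The windows of *Casp9*, *Diablo* and *Xiap* held none of these letters. Those with a match outside the gene body are shown because they differ in which factor's letters they hold, with each match in capitals, 5′ to 3′ along the gene's strand.
*Vdac1* (chr11:52360601-52360850, plus strand, AGGTCA as its reverse complement): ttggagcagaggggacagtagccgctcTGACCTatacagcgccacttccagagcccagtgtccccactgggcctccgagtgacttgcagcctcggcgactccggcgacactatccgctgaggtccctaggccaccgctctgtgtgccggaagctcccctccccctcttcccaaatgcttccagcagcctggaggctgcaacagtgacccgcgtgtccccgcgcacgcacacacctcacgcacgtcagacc
*Cycs* (chr6:50566570-50566819, minus strand, TGACGTCA then GCATGCGC): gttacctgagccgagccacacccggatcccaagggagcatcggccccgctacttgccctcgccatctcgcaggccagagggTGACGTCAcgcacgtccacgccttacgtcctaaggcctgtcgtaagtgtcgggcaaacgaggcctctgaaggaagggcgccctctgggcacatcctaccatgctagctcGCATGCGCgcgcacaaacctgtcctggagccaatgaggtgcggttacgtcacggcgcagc
*Apaf1* (chr10:91082744-91082993, minus strand, GCATGCGC as its reverse complement): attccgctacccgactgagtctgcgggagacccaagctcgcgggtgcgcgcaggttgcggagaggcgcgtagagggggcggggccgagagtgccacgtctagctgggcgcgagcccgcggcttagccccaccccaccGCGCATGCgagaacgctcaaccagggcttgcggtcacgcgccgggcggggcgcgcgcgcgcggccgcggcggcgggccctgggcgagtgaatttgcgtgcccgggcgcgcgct
The *Cycs* window carried both TGACGTCA and GCATGCGC, starting 169 bases (TGACGTCA) and 60 bases (GCATGCGC) before the start site. These matches are letters in a window, and binding was not measured here.

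None of the 8 genes passed the test for a difference between the genotypes. When sex and genotype were fitted together by edgeR's quasi-likelihood method, with Benjamini-Hochberg adjustment, 0 of 8 had an adjusted p under 0.05, as had 0 (0%) of the 14619 genes tested. At an unadjusted p under 0.05 the test picked 1 of the 8, *Xiap*, against 10.3% of all genes. DESeq2 called 0 of the 8 and 1.21% of all genes, and edgeR with a block for the replicate number called 0 of the 8 and 0.157% of all genes. The libraries of the genotypes overlapped for each of the 8, while 15.4% of all genes had all FXR-/- libraries above or all below the FXR+/+ libraries. The log2 fold change of FXR-/- over FXR+/+ was below 0 for 7 of the 8, all but *Cycs*, with a median of −0.11, beside a median of 0.0084 and 48.4% below 0 over all genes.

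**Figure D1:**
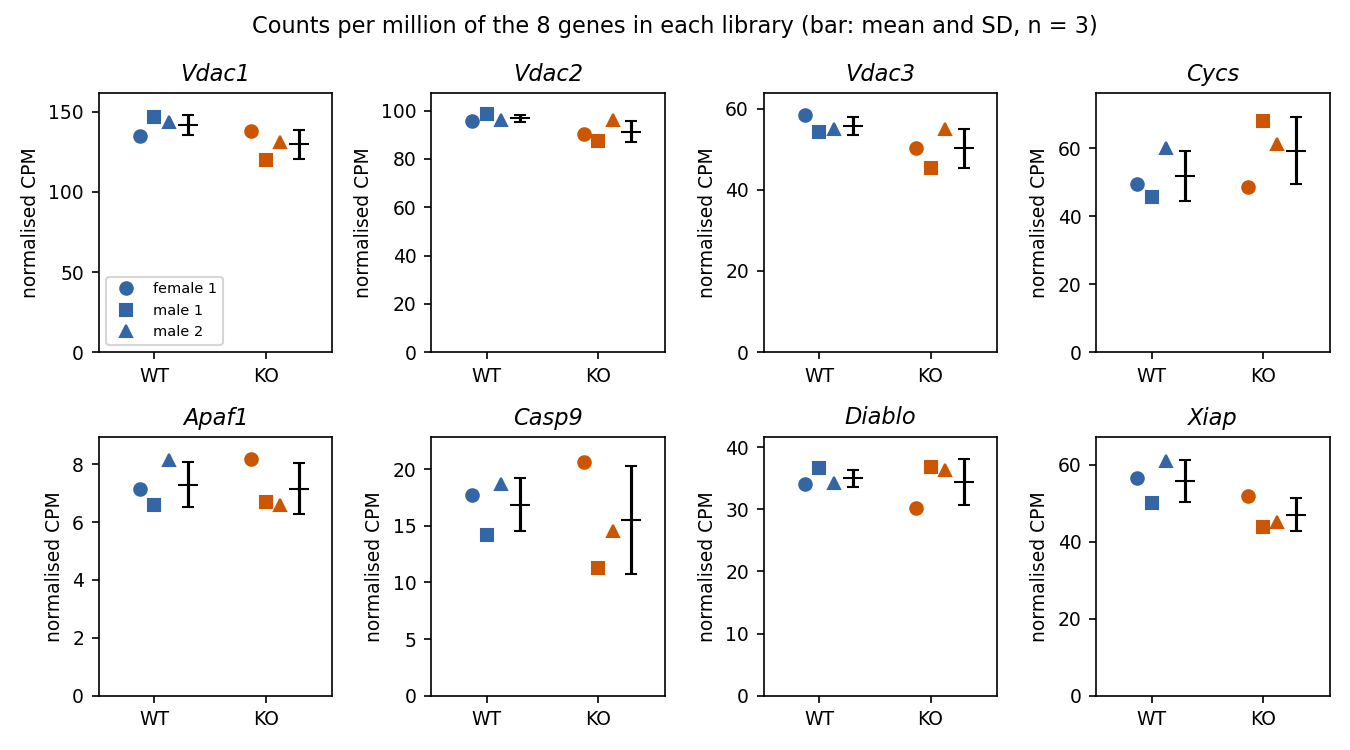
Normalised CPM (y axes, from 0) of the 8 genes in the FXR+/+ (WT) and FXR-/- (KO) libraries. Symbols mark the female 1, male 1 and male 2 libraries, and the bar beside them is the mean and SD of 3 libraries. The genotypes overlap in every panel, and *Xiap* runs from 50.1 to 60.9 in WT and from 44.0 to 52.0 CPM in KO.

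*Vdac1* (gene 22333, chromosome 11, 52360860 to 52389397 on the plus strand in GENCODE vM21), the main VDAC of most tissues, had 135, 147 and 144 CPM in FXR+/+ and 138, 120 and 131 CPM in FXR-/- islets (female 1, male 1 and male 2). The FXR-/- male 1 library was the lowest, and the FXR-/- female library stood above the FXR+/+ female library. The means were 142 ± 6.34 and 130 ± 9.02 CPM (SD, n = 3). On the log2 scale FXR-/- differed from FXR+/+ by −0.13 (SE 0.0865, edgeR adjusted p = 0.582), and the 95% interval of the fold ran from 0.795 to 1.05.

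*Vdac2* (gene 22334, chromosome 14, 21825238 to 21845879, plus strand), whose product also holds the pro-apoptotic BAK at the outer membrane, had 95.6, 98.6 and 96.3 CPM in FXR+/+ and 90.3, 87.6 and 96.0 CPM in FXR-/- libraries. It was the steadiest of the 8 genes, with a highest library 1.12 times the lowest. FXR-/- differed by −0.084 on the log2 scale (SE 0.0747, edgeR adjusted p = 0.665), with an interval of the fold from 0.836 to 1.06.

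*Vdac3* (gene 22335, chromosome 8, 22577075 to 22593813, minus strand), the third isoform, had 58.3, 54.2 and 54.9 CPM in FXR+/+ and 50.4, 45.3 and 54.9 CPM in FXR-/- libraries. The male 2 libraries of both genotypes had the same level, and the difference lay in the female 1 and male 1 libraries. This gave a log2 fold change of −0.15 (SE 0.0933, edgeR adjusted p = 0.556) and the interval of the fold ran from 0.774 to 1.05.

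*Cycs* (gene 13063, chromosome 6, 50562563 to 50566538, minus strand) was the only one of the 8 with a higher mean in FXR-/- islets. It had 49.6, 45.8 and 60.1 CPM in FXR+/+ and 48.6, 68.1 and 61.4 CPM in FXR-/- libraries. Nearly all of that difference lay in the male 1 pair, where the FXR-/- library was 1.49 times the FXR+/+ library, against 0.979 in the female pair and 1.02 in the male 2 pair. Over all libraries the log2 fold change was 0.18 (SE 0.126, edgeR adjusted p = 0.588), and it was −0.0053 (edgeR adjusted p = 0.986) without the male 1 libraries of both genotypes, the pair with the highest acinar share. With a term for acinar RNA, all libraries kept, it was 0.26 (edgeR adjusted p = 0.613). The 3 genes with the smallest root mean square difference from *Cycs* in log2 CPM centred over the 6 libraries were *Srpr*, *Erp44* and *Txndc5*, at 0.0337, 0.0340 and 0.0372, and for *Vdac1* they were *Kctd18*, *Slc5a6* and *Abcc5*, at 0.0202 to 0.0240.

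*Apaf1* (gene 11783, chromosome 10, 90989311 to 91082770, minus strand) had the fewest counts, 127 to 258 in a library. It had 7.16, 6.59 and 8.14 CPM in FXR+/+ and 8.18, 6.68 and 6.61 CPM in FXR-/- libraries, and the genotypes covered the same range. Between genotypes it differed by −0.037 on the log2 scale (SE 0.155, edgeR adjusted p = 0.938), with an interval of the fold from 0.758 to 1.25. *Apaf1* lies 1455666 bases from the targeted *Nr1h4* on the same chromosome.

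*Casp9* (gene 12371, chromosome 4, 141793612 to 141815976, plus strand) varied most, with 17.7, 14.2 and 18.7 CPM in FXR+/+ and 20.7, 11.3 and 14.6 CPM in FXR-/- libraries. Its lowest libraries of each genotype were the male 1 libraries, which had the highest acinar shares (12.7% and 13.1%), and in FXR-/- the male 2 library, with an acinar share of 8.14%, came next. The log2 fold change was −0.16 (SE 0.178, edgeR adjusted p = 0.742, interval of the fold from 0.673 to 1.20), and −0.011 (edgeR adjusted p = 0.988) with a term for acinar RNA. *Casp9* also shares 94 bases of its last exon with exons of *Cela2a* and *Ctrc*, acinar genes on the opposite strand, and *Cela2a* stood at 5314 to 20537 CPM. Reads from that stretch could not be assigned by strand here, and their part in the *Casp9* counts was not tested. Whether the acinar share bears on the *Casp9* level was not tested either, and the acinar term was fitted on only 6 libraries.

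*Diablo* (gene 66593, chromosome 5, 123509765 to 123524176, minus strand) had 34.0, 36.6 and 34.2 CPM in FXR+/+ and 30.2, 36.8 and 36.3 CPM in FXR-/- libraries. Apart from the lower FXR-/- female library the levels lay between 34.0 and 36.8 CPM, and the log2 fold change was −0.026 (SE 0.0874, edgeR adjusted p = 0.921), with an interval of the fold from 0.852 to 1.13. *Diablo* shares 1326 exon bases with *B3gnt4* on the opposite strand.

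*Xiap* (gene 11798, chromosome X, 42059679 to 42109656, plus strand) came closest to a difference. It had 56.6, 50.1 and 60.9 CPM in FXR+/+ and 52.0, 44.0 and 45.1 CPM in FXR-/- libraries. The FXR-/- library was the lower of each same-numbered pair, at 0.918, 0.878 and 0.740 of the FXR+/+ library, but the FXR-/- female library stood above the FXR+/+ male 1 library. The means were 55.9 ± 5.44 and 47.0 ± 4.33 CPM (SD, n = 3). The log2 fold change was −0.25 (SE 0.0992) with an interval of the fold from 0.714 to 0.985, an unadjusted p of 0.0362 and an adjusted p of 0.464 by edgeR's quasi-likelihood method. With an acinar RNA term it was −0.18 (edgeR unadjusted p = 0.0837), and without the FXR+/+ male 2 library −0.15 (edgeR unadjusted p = 0.121).

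**Figure D2:**
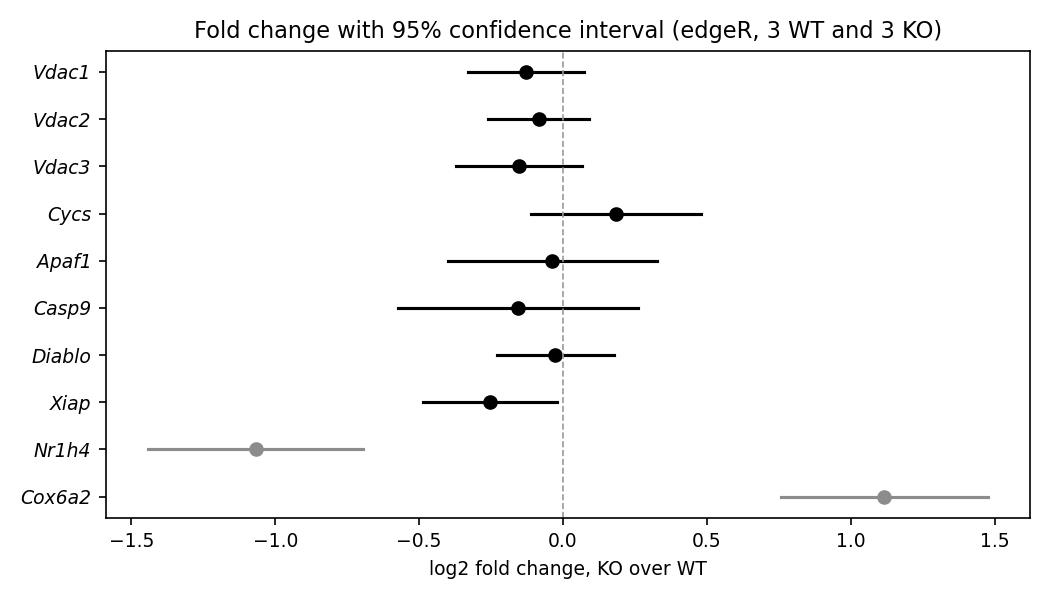
Log2 fold change of FXR-/- (KO) over FXR+/+ (WT) islets (x axis) for the 8 genes in black and for *Nr1h4* and *Cox6a2* in grey, with 95% confidence intervals from edgeR over 3 libraries of each genotype. The intervals of 7 of the 8 genes include 0, that of *Xiap* ends at −0.021, and *Nr1h4* (−1.07) and *Cox6a2* (1.12) lie far outside the range of the 8.

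Levels can be compared between genes only per length, here as CPM per kilobase of the exons that the exon table lists. *Vdac1* was the highest at 72.0 ± 3.22 in FXR+/+ and 65.9 ± 4.58 in FXR-/- islets (SD, n = 3), followed by *Vdac2* at 60.4 ± 0.973 and 57.0 ± 2.68 and *Vdac3* at 39.2 ± 1.56 and 35.3 ± 3.37. *Diablo* (18.0 ± 0.731 and 17.8 ± 1.91) and *Cycs* (16.9 ± 2.42 and 19.4 ± 3.25) came next, and their libraries overlapped. *Xiap* (8.004 ± 0.780 and 6.73 ± 0.620), *Casp9* (4.36 ± 0.606 and 4.01 ± 1.23) and *Apaf1* (1.38 ± 0.148 and 1.35 ± 0.168) were the lowest. By these lengths the pores were the most abundant of these transcripts and the apoptosome genes the least. Among neighbours in this order, *Vdac1* and *Vdac2* overlapped between libraries, as did *Diablo* and *Cycs*, and the other neighbours did not. Within every single library *Vdac1* stood above *Vdac2*, while *Diablo* and *Cycs* changed places from library to library. The exons were listed only where they had counts, so 18 of the 27 exons of *Apaf1* entered its length. With the length of 1 principal transcript the order was the same, and with the union of all GENCODE exons, ranked by the FXR+/+ mean, *Vdac1*, *Vdac2*, *Casp9* and *Apaf1* kept their places, while *Cycs* (15.2 in FXR+/+ and 17.4 in FXR-/- islets) stood above *Vdac3* (10.3 and 9.26), and *Xiap* and *Diablo* (5.90 and 5.67 in FXR+/+, 4.97 and 5.58 in FXR-/- islets) came in either order.

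Of the VDAC transcripts counted per kilobase, *Vdac1* made up 40.4% to 43.3%, *Vdac2* 34.8% to 37.1% and *Vdac3* 21.6% to 24.3% over the 6 libraries. The *Vdac1* share differed by less than the SD of either genotype, at 41.9% ± 1.29 in FXR+/+ and 41.7% ± 1.49 in FXR-/- islets (SD, n = 3). For *Vdac2* the shares were 35.19% ± 0.175 and 36.05% ± 1.14, a difference above the FXR+/+ SD and below the FXR-/- SD. For *Vdac3* they were 22.9% ± 1.24 and 22.3% ± 0.946. The libraries of the genotypes overlapped for each share. The shares themselves rest on the gene lengths. With the union of all GENCODE exons, a setting added after seeing the data, *Vdac1* made up 62.3% to 65.1%, *Vdac2* 23.4% to 25.3% and *Vdac3* 11.5% to 13.1%.

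**Figure D3:**
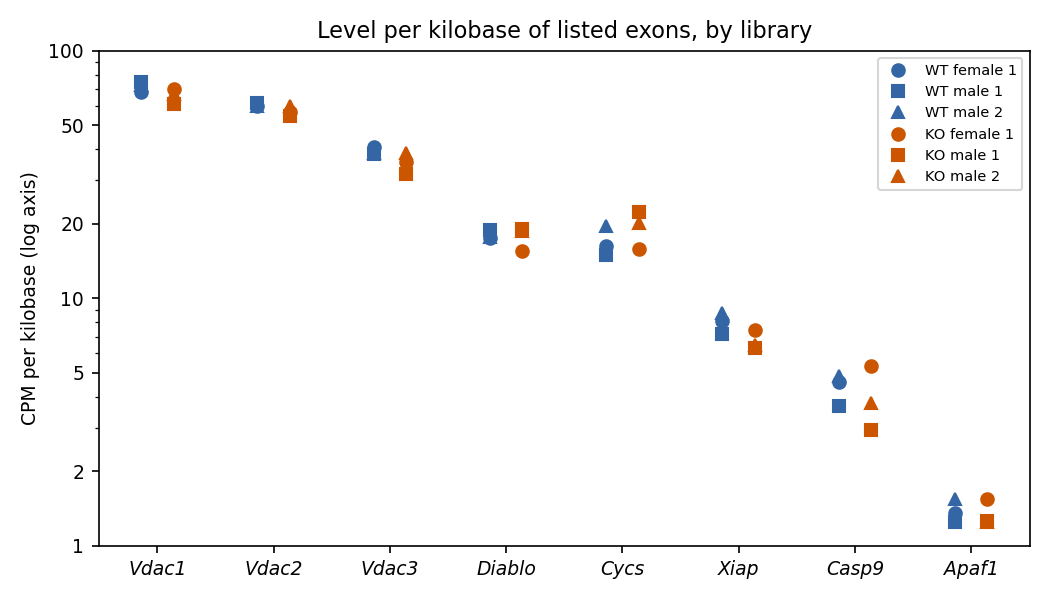
Level of the 8 genes in CPM per kilobase of listed exons (y axis, log scale), ordered by their median, in each FXR+/+ (WT, blue) and FXR-/- (KO, orange) library. The VDAC genes lie between 31.8 and 74.6, and *Apaf1* between 1.24 and 1.54.

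A ratio of counts within a library does not depend on how libraries are scaled, so 5 ratios between partners were compared by a two-sided exact permutation test of their log2 values over all 20 relabellings, whose smallest p is 0.1. *Apaf1*:*Xiap*, activator over inhibitor, was 0.127, 0.132 and 0.134 in FXR+/+ and 0.157, 0.152 and 0.146 in FXR-/- libraries. It was higher in each FXR-/- library than in each FXR+/+ library, by 0.22 on the log2 scale. The exact permutation p was 0.1, the smallest this test can give, and 0.5 when adjusted over the 5 ratios. A full separation was also found for 15.4% of all single genes, and its share over other ratios was not counted. From the exon counts summed per gene the difference was 0.090, and the exact permutation p of 0.6 no longer marked a full separation. Those exon counts held 46.5% of the gene counts of *Apaf1*, 486 over all libraries, and 85.6% of those of *Xiap*. *Diablo*:*Xiap*, the antagonist over its target, was 0.601, 0.730 and 0.562 in FXR+/+ and 0.581, 0.837 and 0.805 in FXR-/- libraries, and the female libraries did not share the difference of the male 2 pair (exact permutation p = 0.3, adjusted 0.667). *Vdac2*:*Vdac1* and *Vdac3*:*Vdac1* differed by 0.044 and −0.028 on the log2 scale (exact permutation p = 0.4 and 0.6, adjusted 0.667 and 0.7), and *Casp9*:*Apaf1* by −0.13 (exact permutation p = 0.7, adjusted 0.7).

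**Figure D4:**
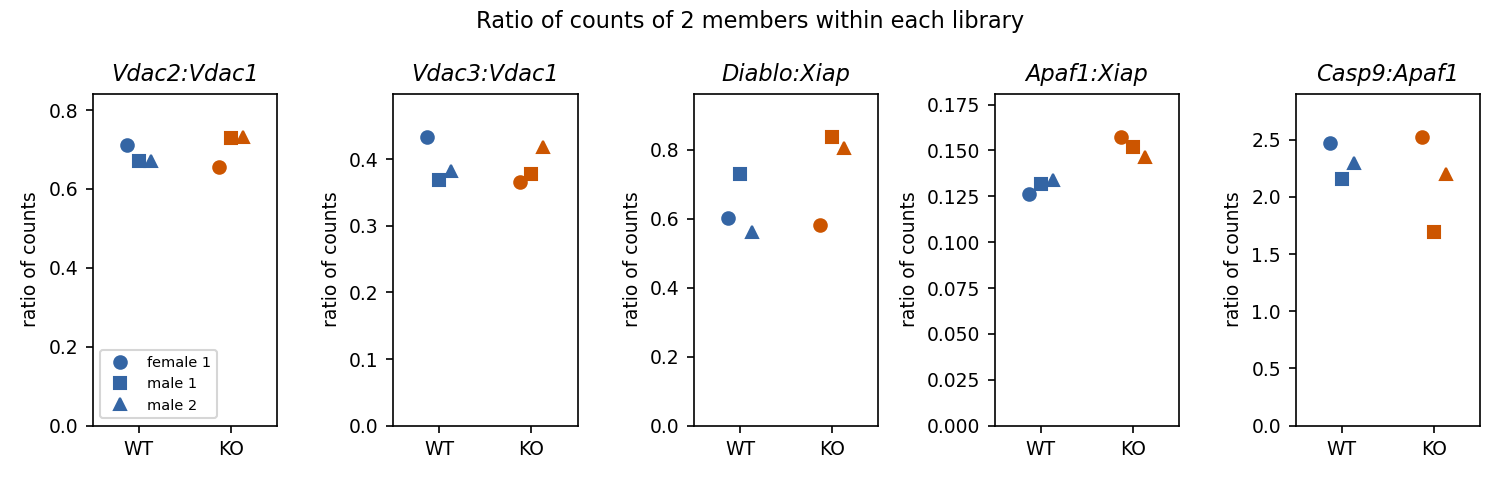
Ratio of the counts of 2 genes within each library (y axes, from 0) in FXR+/+ (WT) and FXR-/- (KO) islets, with symbols for the female 1, male 1 and male 2 libraries. *Apaf1*:*Xiap* is the panel whose genotypes do not overlap, at 0.127 to 0.134 in WT and 0.146 to 0.157 in KO (exact permutation p = 0.1, adjusted 0.5).

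Between the sexes 0 of the 8 genes were called (edgeR, female against male, adjusted p under 0.05, as were 0.0547% of all genes). *Casp9* came nearest, at a mean of 19.2 CPM in the 2 female and 14.7 CPM in the 4 male libraries, a log2 difference of 0.40 (edgeR unadjusted p = 0.0687, adjusted p = 0.686). The interaction of genotype and sex called 0 of the 8 and 0% of all genes.

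The exon table gives a second look at the same libraries. In it 69 exons of the 8 genes were listed, 60 of them with exactly the start and end of a GENCODE vM21 exon of GRCm38, and it held 28.7% (*Vdac2*) to 85.6% (*Xiap*) of the gene counts. Most of these counts, from 73.0% (*Apaf1*) and 84.8% (*Xiap*) to 98.9% (*Cycs*), sat in the last exon of each gene, which is long and takes in the stop codon and most or all of the 3′ UTR. The last exon of *Cycs*, 2823 bases at 50562563 to 50565385, was the fullest, that of *Vdac1*, 966 bases at 52388432 to 52389397, held 97.6%, and that of *Apaf1* had 2286 bases. Over the whole table, exons under 150 bases were 52.1% of the exons and held 2.33% of the counts. Of the 69 exons 14 were tested and 0 were called, against 0.0185% of all exons.

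*Xiap* had 2 exons deep enough to compare. Exon 9, the last, which runs from 42104791 to 42109664, was counted 988, 708 and 1455 times in FXR+/+ and 935, 571 and 755 times in FXR-/- libraries, which differed by −0.31 on the log2 scale (edgeR unadjusted p = 0.0466, adjusted p = 0.638). Exon 4, from 42094367 to 42095272, was counted 144, 121 and 197 times in FXR+/+ and 135, 121 and 149 times in FXR-/- libraries, which differed by −0.018 (edgeR adjusted p = 0.979). The lower *Xiap* count was thus seen in the last exon, and the difference between the exons was not tested.

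Some counts could be shared with copies elsewhere in the genome. Among GENCODE transcripts, *Cycs* had 10 copies of at least 90% identity over at least 200 bases, of which 9 were pseudogenes, and the closest matched at 99.9% over 946 bases. *Vdac3* had 2, with *Vdac3-ps1* at 99.5% over 853 bases, *Vdac1* had 2, *Vdac2* and *Xiap* had 1 each, *Diablo* had 1, the gene *Gm49027* that shares its exons, and *Apaf1* and *Casp9* had 0. None of these copies is a row of the count table under its name. How reads with several matches were counted is not given in the sources used here. The levels of the genes with copies are uncertain to that degree, and so are the VDAC shares and ratios. This includes *Vdac2*, whose pseudogene *Gm7832* matched at 97.0% over 881 bases.

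The neighbours of these genes in the pathway were followed as 78 genes in 8 lists. Of the 74 that were tested 0 were called by edgeR with the sex term, 1 with the replicate block and 2 by DESeq2. At an unadjusted p under 0.05 edgeR picked 4 that were higher and 3 that were lower, or 9.46% of those tested beside 10.3% of all genes. All FXR-/- libraries lay above all FXR+/+ libraries for 4 and below them for 7, or 14.9% beside 15.4% of all genes, so the genes named below for such a separation are no more than the share found across the table. The median log2 fold change of the 74 was 0.011. Among the other caspases 0 of 8 were called and the median was −0.093. *Casp2* (−0.10) and *Casp8* (−0.084), an initiator of the death receptor route, overlapped.

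Of the inhibitor of apoptosis proteins and their antagonists 10 of 12 were tested and 0 called, with a median of 0.13. *Birc2*, which encodes cIAP1, had 58.8, 51.3 and 62.2 CPM in FXR+/+ and 49.8, 47.2 and 49.1 CPM in FXR-/- libraries, or −0.24 on the log2 scale (edgeR adjusted p = 0.464), near that of *Xiap* and without overlap of the genotypes. *Birc6* was at −0.18 and *Naip2* at −0.039, both with overlap. *Septin4*, whose isoform ARTS binds XIAP, was at 0.25 with all FXR-/- libraries above (edgeR adjusted p = 0.491). Of the 6 genes of nuclear dismantling 0 were called. *Dffa* and *Dffb*, the inhibitor and the nuclease of the caspase-activated DNase, were at −0.15 and −0.33, with all FXR-/- below all FXR+/+ libraries (edgeR adjusted p = 0.537 and 0.480), while *Acin1* and *Parp1* stood at 0.0031 and −0.043.

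Among the cytochrome c partners 1 gene was called in other fits. *Cox6a2*, a subunit of the complex IV that cytochrome c feeds, had 30.9, 33.0 and 40.3 CPM in FXR+/+ and 58.7, 69.8 and 99.9 CPM in FXR-/- libraries, a log2 fold change of 1.12 with an adjusted p of 0.197 in edgeR's test, 0.0129 with the replicate block and 5.26e-08 in DESeq2. Of that list 0 of 5 tested genes were called by edgeR with the sex term. *Cox6a1*, the form found in most tissues, was at 0.25 and *Cox4i1* at 0.16, both with overlap. In the outer membrane import list 0 of 11 were called, and *Tomm6* (0.30), *Tomm20* (−0.093) and *Samm50* (−0.0081) overlapped.

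Among partners of VDAC 14 of 15 were tested and 0 called by edgeR. *Itpr2*, an endoplasmic reticulum calcium channel that can be tethered to VDAC1, had 34.2, 41.1 and 36.0 CPM in FXR+/+ and 25.5, 27.5 and 26.3 CPM in FXR-/- libraries, a log2 fold change of −0.49 (adjusted p 0.225 by edgeR, 0.0758 with the replicate block and 0.00552 by DESeq2). *Hspa9*, the chaperone of that tether, was at −0.17 with all FXR-/- libraries below, *Tspo*, a cholesterol-binding protein of the outer membrane, at 0.28 with all above, and *Slc25a4* (−0.037) and *Itpr1* (−0.026) overlapped. The edgeR adjusted p of *Hspa9* was 0.492 and that of *Tspo* 0.487. For cristae shape 0 of 8 were called, with *Yme1l1*, a protease that cuts OPA1, at −0.22 and all FXR-/- libraries below (edgeR adjusted p = 0.461) and *Immt* at 0.039 and *Micos10* at 0.15 with overlap. For the BCL-2 family, which gates the release of cytochrome c, 0 of 12 were called, with *Mcl1* at 0.015, *Bcl2l2* at −0.093, *Bcl2l1* at 0.21 and *Bok* at 0.34, the last with all FXR-/- libraries above (edgeR adjusted p = 0.491).

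**Figure D5:**
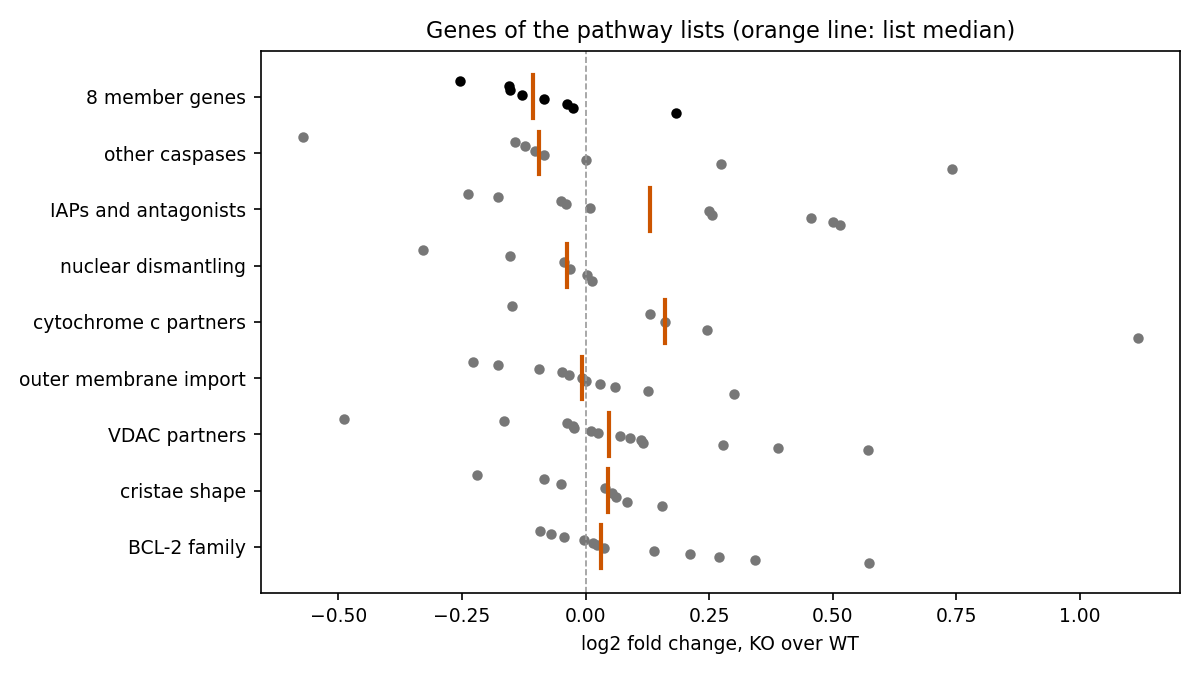
Log2 fold change of FXR-/- (KO) over FXR+/+ (WT) islets (x axis) for each tested gene of the 8 pathway lists and for the 8 genes of the pore, apoptosome and inhibitor at the top, with an orange line at each median. The 8 genes lie between −0.25 and 0.18, and the point farthest from 0 is *Cox6a2* at 1.12.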

How the data were processed

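The authors deposited raw counts per gene and per exon as whole numbers, without normalization. The submitters' processing notes name HISAT as aligner, and the counter and the use of strand are not given in the sources used here. The authors also deposited their own comparison of the genotypes, with fold changes and p-values, which was not used. Genes were filtered with filterByExpr (minimum count 10, minimum total 15), normalized by TMM and tested in R 4.3.3 with edgeR 4.0.16 (glmQLFit, glmQLFTest, terms for sex and genotype, all 6 libraries), with Benjamini-Hochberg adjustment over all 14619 genes. DESeq2 1.42.0 was an alternative. Standard errors came from the F statistic. The procedure was also run on simulated counts. These had neither the shared deviations of same-numbered libraries nor differing acinar shares, so the run checked only the code. Exons were fitted alike, and copies were sought with blastn 2.17.0.

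The genes named are the 8 genes, *Nr1h4* and *Cox6a2*, for each list the 3 with the highest mean CPM and those called or without overlap between genotypes, and the nearest 3 in likeness (pseudocount 0.01 CPM), besides genes that overlap or resemble a member. Of these, 1 gene is not reported here. Members and lists were chosen with earlier results of these data known.

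Same-numbered libraries of both genotypes deviated together: their deviations from the genotype means correlated at 0.425 (female 1), 0.438 (male 1) and 0.382 (male 2) over 13537 genes with a mean of at least 1 CPM, and at 0.0309 or below for libraries with different numbers. Deviations from the mean of 3 libraries sum to 0 within a genotype. The low values for different numbers therefore follow in part from the high ones for same numbers. The labels give the numbers and not what they stand for.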

Additional observations from a re-analysis of the deposited data

Results flagged for a closer look

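For 4 of the 8 genes the FXR-/- over FXR+/+ ratio of the female pair lay on the other side of 1 from both male pairs. The share of all genes with this pattern was not counted, so whether 4 of 8 is unusual cannot be said. The log2 difference of the genotype effect, female minus male, was 0.24 for *Vdac1* (edgeR unadjusted p = 0.217), −0.32 for *Cycs* (edgeR unadjusted p = 0.268), 0.57 for *Casp9* (edgeR unadjusted p = 0.145) and −0.22 for *Diablo* (edgeR unadjusted p = 0.283). The edgeR interaction test gave each an adjusted p of 1.00, and it called 0 of all genes, with 217 at an unadjusted p under 0.05. Only 1 pair of libraries was female.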

How the results depend on the processing

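The count of the 8 genes with an adjusted p under 0.05 was 0 under all 18 alternatives. Their log2 fold changes kept their sign in 134 of 144 refits. *Vdac1*, *Vdac3* and *Xiap* did so in all. The refits are not all separate, because leaving out either female library left the other to set only the sex term. Both of those refits were nearly the fit of males alone, and *Diablo* was at 0.046 in each. *Diablo* turned to 0.046 in males alone and to 0.080 with exon counts summed per gene, which also put *Vdac2* at 0.026. The exon counts held 62.5% of the gene counts of *Diablo* and 28.7% of those of *Vdac2*. *Apaf1* turned to 0.046 with a term for acinar RNA, and *Cycs* to −0.0053 without both male 1 libraries, a setting added after seeing the data. The cause was not tested. With each library left out in turn, the log2 fold change ran from −0.21 to −0.072 for *Vdac1*, −0.12 to −0.051 for *Vdac2*, −0.24 to −0.089 for *Vdac3*, 0.044 to 0.29 for *Cycs*, −0.15 to 0.093 for *Apaf1*, −0.35 to 0.027 for *Casp9*, −0.074 to 0.046 for *Diablo* and −0.32 to −0.15 for *Xiap*. The ends at −0.21 (*Vdac1*), 0.29 (*Cycs*), −0.15 (*Apaf1*), −0.35 (*Casp9*), 0.046 (*Diablo*) and −0.32 (*Xiap*) came without a female library, and so from the males. *Xiap* passed an unadjusted p of 0.05 in edgeR except with the acinar term (0.0837) and without FXR+/+ male 2 (0.121), FXR-/- male 1 (0.0980) or FXR-/- male 2 (0.106).

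The paired fit, in which the replicate block replaced sex, gave log2 fold changes of −0.13 for *Vdac1*, 0.19 for *Cycs* and −0.25 for *Xiap* (edgeR adjusted p = 0.248) and changed no call among the 8. Over all genes the calls were 0 in edgeR with the sex term (1511 at an unadjusted p under 0.05), 23 with the block, 177 in DESeq2, 4 from summed exon counts, 7 with the acinar term and 235 without the male 1 libraries. Scaling by library size alone moved the median of all genes to −0.087 and that of the 8 to −0.20, and put exon 10 of *Vdac2* at −0.023 and exon 7 of *Vdac1* at −0.018. With each library left out, the log2 difference of *Vdac3*:*Vdac1* ran from −0.085 to 0.041 (above 0 without either female library) and that of *Casp9*:*Apaf1* from −0.25 to 0.034 (without FXR-/- male 1), while *Apaf1*:*Xiap* ran from 0.19 to 0.24, *Vdac2*:*Vdac1* from 0.017 to 0.097 and *Diablo*:*Xiap* from 0.12 to 0.39. Exon counts gave 0.15 for *Vdac2*:*Vdac1* and 0.32 for *Diablo*:*Xiap*. With the union of GENCODE exons as gene length, a setting added after seeing the data, *Cycs* ranked 3, *Vdac3* 4, *Xiap* 5 and *Diablo* 6 by FXR+/+ mean level.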
